A study of Mus musculus with 6 samples.

Results

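The genes described here are 10 enzymes of serine synthesis, the folate cycle and the methionine cycle: Phgdh, Psat1, Psph, Shmt1, Shmt2, Mthfd2, Mat1a, Gnmt, Bhmt and Cbs. They were taken by symbol, through the GENCODE M21 annotation, from a table of 58601 rows, and all 10 were found. RNA sequencing of liver was available for 3 libraries of the lycorine group and 3 of the vehicle group, both treated for 2 weeks from 8 weeks of age. Lycorine is a plant alkaloid of the amaryllis family. Both groups carried the knockout of Mdr2, whose gene symbol is Abcb4 and whose protein exports phosphatidylcholine into bile, so every level below is that of a liver labelled as knockout. The protocol text writes the genotype as Mdr2-HKO without spelling it out. The labels used here state no Cre driver, sex, dose or wild-type control, and do not say whether a library stands for 1 animal. Each p-value below thus rests on library-to-library spread alone, part of which may be technical.

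Serine is made from a glycolytic intermediate by PHGDH, PSAT1 and PSPH in turn. The serine hydroxymethyltransferases SHMT1, in the cytosol, and SHMT2, in mitochondria, pass a carbon unit of serine to tetrahydrofolate and leave glycine, and MTHFD2 oxidises the folate-bound unit in mitochondria. In the methionine cycle, MAT1A makes S-adenosylmethionine, the methyl donor of the cell, methyltransferases such as GNMT use it, and the homocysteine that results is either methylated again, by BHMT with betaine as the donor, or joined to serine by CBS on the way to cysteine. Hepatocytes are known for high levels of the methionine cycle enzymes and, under usual diets, for low levels of the serine synthesis enzymes.

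In these livers the methionine cycle enzymes were abundant, and the serine synthesis enzymes were weakly expressed, at 0.15 to 4.41 TPM. No gene of the 10 passed the test between lycorine and vehicle. On the scale of log2(TPM + 1), the differences were largest in Bhmt, Shmt2 and Shmt1, at 0.59 to 1.04 with lycorine over vehicle. Phgdh, at 0.53 on that scale, comes second to Bhmt with 0.1 added in place of 1, at 0.78. Shmt1 was the only gene of the 10 whose lycorine libraries all lay above its vehicle libraries. In other scalings of the libraries that separation was lost. Values are in TPM, a unit of transcript abundance that is set per gene length and scaled to the same sum in every library. Depth is unknown for all 6 libraries.

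Both serine hydroxymethyltransferase genes lie on the minus strand, and the stretch just before RefSeq's start of each is shown because these are the pair of genes that encode the same reaction in different compartments and stand highest among the folate genes of the 10. The sequences are RefSeq's on GRCm38.p6, 5′ to 3′ on the gene's strand, ending at the base before RefSeq's start, with CG dinucleotides in capitals. For Shmt1, M21 places the outer end of the gene farther upstream, at 60811718, so this stretch lies inside the gene's span in M21. The Shmt1 stretch is chr11:60811266-60811466, has 201 bases that no exon of the gene covers in M21, 13 CG dinucleotides and 63.2% G and C. The Shmt2 stretch is chr10:127522445-127522694, with 250 bases, 7 CG dinucleotides and 40.8% G and C.
Shmt1: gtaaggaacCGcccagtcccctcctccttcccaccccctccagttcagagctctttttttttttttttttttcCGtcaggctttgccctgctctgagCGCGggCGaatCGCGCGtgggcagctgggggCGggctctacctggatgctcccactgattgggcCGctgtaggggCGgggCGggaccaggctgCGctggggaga
Shmt2: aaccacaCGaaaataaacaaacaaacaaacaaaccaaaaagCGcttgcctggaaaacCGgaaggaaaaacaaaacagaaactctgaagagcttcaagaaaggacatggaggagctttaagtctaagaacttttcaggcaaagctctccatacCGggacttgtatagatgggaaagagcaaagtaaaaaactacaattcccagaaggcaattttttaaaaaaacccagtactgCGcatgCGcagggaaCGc
RefSeq gave windows from 250 bases before to 50 after the start for 9 of the 10 genes, 10 windows in all, with 2 for Psat1. Mat1a had none. The windows were searched on both strands for TGATGNAA, the core of the element bound by ATF4 with C/EBP partners, and for TGACGTCA, the cAMP response element that ATF3 also binds. Neither motif was found in any of the 10 windows, where 3.97% and 1.79% of all 32851 windows hold them. These letters are thus not in these windows, and nothing more is read from that.

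The libraries were unequal in makeup, which bears on every level below. Protein-coding nuclear genes made up 69.5% to 78.1% of TPM in lycorine and 51.5% to 71.5% in vehicle, with the lowest share in vehicle 3. Mitochondrial transcripts held 9.48% to 13.2% of TPM in lycorine and 12.9% to 20.1% in vehicle, and the part of this in the results was not tested. The knocked-out Abcb4 was present at 8.96, 8.32 and 32.2 TPM in lycorine and at 43.5, 10.8 and 12.3 TPM in vehicle, so its level did not check the genotype. The tissue label was met by its markers: all 9 matched hepatocyte markers were present in every library, with Alb (albumin) between 5039 and 19785 TPM. In tests with limma, 0.0% of the 13854 rows that averaged 1 TPM or more passed a Benjamini-Hochberg adjusted p of 0.05, and the smallest adjusted p of any row was 0.376. At an unadjusted p under 0.05 there were 3.44% of rows, 2.79% higher and 0.65% lower in lycorine. Over all rows the log2 fold change had a median of 0.22, or of -0.02 with median-of-ratios scaling, so a fold change near 0.22 is that of a typical row.

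Of the 10 genes, 9 passed the filter on the mean, and Psat1 did not. Of those 9, 0 passed in limma over all rows, and 0 had an unadjusted p under 0.05, the smallest being 0.0706 for Shmt1. The log2 fold change was above 0 for 8 of the 9, as it was for 69.9% of all tested rows, and 6 exceeded the median over all rows. The median of the 9 was 0.45, beside 0.22 over all rows, and with median-of-ratios scaling it was 0.15, beside -0.02.

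**Figure D1:**
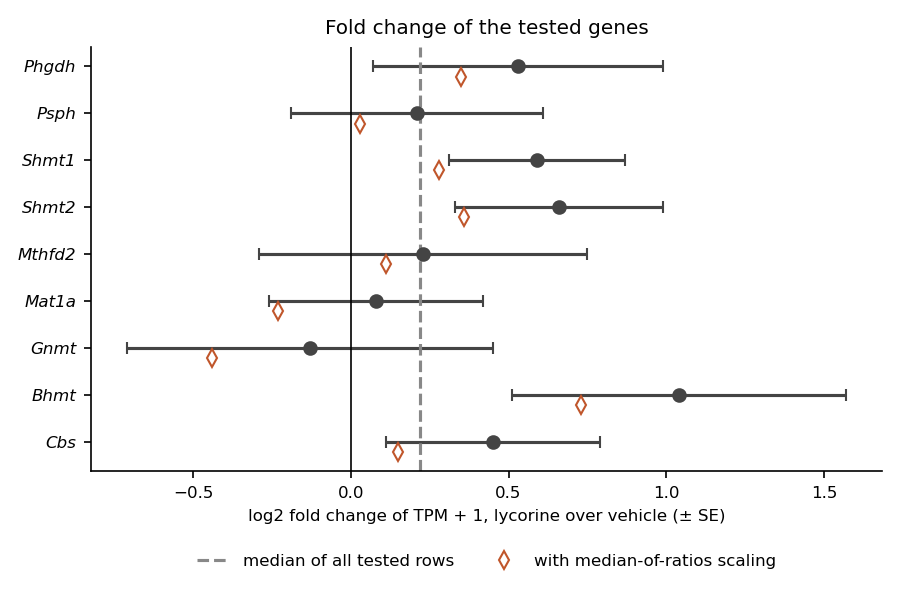
Log2 fold change of TPM + 1, lycorine over vehicle, for the 9 tested genes, as points with SE bars; the dashed line is the median of all tested rows, 0.22, and open diamonds give the value with median-of-ratios scaling. Bhmt stands highest at 1.04 and Gnmt lowest at -0.13, and each diamond lies to the left of its point.

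The 3 serine synthesis genes were weakly expressed. Phgdh, the first and committing enzyme of the route, on chromosome 3 from 98313170 to 98339990 of GRCm38, was at 3.07, 1.40 and 4.41 TPM in lycorine 1 to 3 and at 2.58, 0.72 and 1.84 TPM in vehicle 1 to 3. Lycorine 3 and lycorine 1 were highest, but lycorine 2 lay below both vehicle 1 and vehicle 3. A log2 fold change of 0.53 resulted (SE 0.46, limma adjusted p = 0.832), which was 0.27 without lycorine 3, 0.85 without lycorine 2 and 0.23 without vehicle 2.

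Psat1, the aminotransferase that follows, on chromosome 19 from 15904678 to 15947337, stayed under 1 TPM in every library. It was at 0.60, 0.77 and 0.15 TPM in lycorine and at 0.51, 0.48 and 0.32 TPM in vehicle. The highest and the lowest library were both from lycorine. Psph, the phosphatase of the last step, on chromosome 5 from 129765558 to 129787449, was at 2.21, 1.65 and 1.46 TPM in lycorine and at 2.20, 1.38 and 0.79 TPM in vehicle. Lycorine 1 and vehicle 1 were at nearly the same level, with overlap between the groups. The difference was 0.21 on the log2 scale (SE 0.40, limma adjusted p = 0.909), 0.42 without vehicle 1 and -0.0021 without vehicle 3. Psph shares 452 bases with Cct6a on the other strand, which was at 7.97 to 16.7 TPM, and whether reads were counted by strand is not given in the sources used here.

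Among protein-coding nuclear genes, 21864 in all, Phgdh ranked between 6505 and 9986, Psph between 8391 and 10793 and Psat1 between 10797 and 12960 over the 6 libraries. At such levels the added 1 TPM of the log transform shrinks fold changes. With a pseudocount of 0.1 the log2 fold change of Phgdh was 0.78 and that of Psph 0.35, and neither passed.

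The 2 serine hydroxymethyltransferase genes were at middle levels. Shmt1, the cytosolic enzyme, on chromosome 11 from 60788104 to 60811718, was at 58.3, 41.0 and 57.1 TPM in lycorine and at 33.8, 31.7 and 36.5 TPM in vehicle. All 3 lycorine libraries lay above all 3 vehicle libraries, and the nearest pair was lycorine 2 and vehicle 3. Its mean was 52.1 ± 9.68 TPM in lycorine and 34.0 ± 2.39 TPM in vehicle (SD, n = 3 each), with a log2 fold change of 0.59 (SE 0.28, limma adjusted p = 0.832). The exact permutation p, two-sided, was 0.1, the smallest that 3 against 3 can give. Such upward separation was found in 9.6% of all tested rows and in 1 of the 9 genes, so its count here was near the background. With the protein-coding nuclear genes alone rescaled to the usual TPM sum, Shmt1 was at 74.7, 54.4 and 82.2 in lycorine and at 47.3, 49.8 and 70.8 in vehicle, and the groups overlapped. With median-of-ratios scaling they overlapped too, and the log2 fold change was 0.28. With these scalings 4.82% and 3.2% of rows had every lycorine library above every vehicle library.

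Shmt2, the mitochondrial enzyme, on chromosome 10 from 127517123 to 127522444, was at 83.6, 65.6 and 88.4 TPM in lycorine and at 67.6, 49.9 and 35.4 TPM in vehicle. The groups overlapped only through lycorine 2, which lay just below vehicle 1. A log2 fold change of 0.66 was measured (SE 0.33, limma adjusted p = 0.832), against 0.36 with median-of-ratios scaling, 0.43 without vehicle 3 and 0.89 without vehicle 1. Shmt1 shares 184 bases with Smcr8 and Shmt2 shares 32 bases with Ndufa4l2, both on the other strand. These neighbours reached at most 4.68 and 7.64 TPM.

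Mthfd2, the mitochondrial folate dehydrogenase known for high expression in dividing cells, on chromosome 6 from 83305691 to 83325908, was at 1.54, 1.61 and 0.39 TPM in lycorine and at 1.54, 0.46 and 0.54 TPM in vehicle. Lycorine 3 was the lowest library and lycorine 1 equalled vehicle 1. On the log2 scale the groups differed by 0.23 (SE 0.52, limma adjusted p = 0.922), and by 0.53 without lycorine 3 and 0.08 without vehicle 2. The mean of the gene over the libraries just passed the filter.

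**Figure D2:**
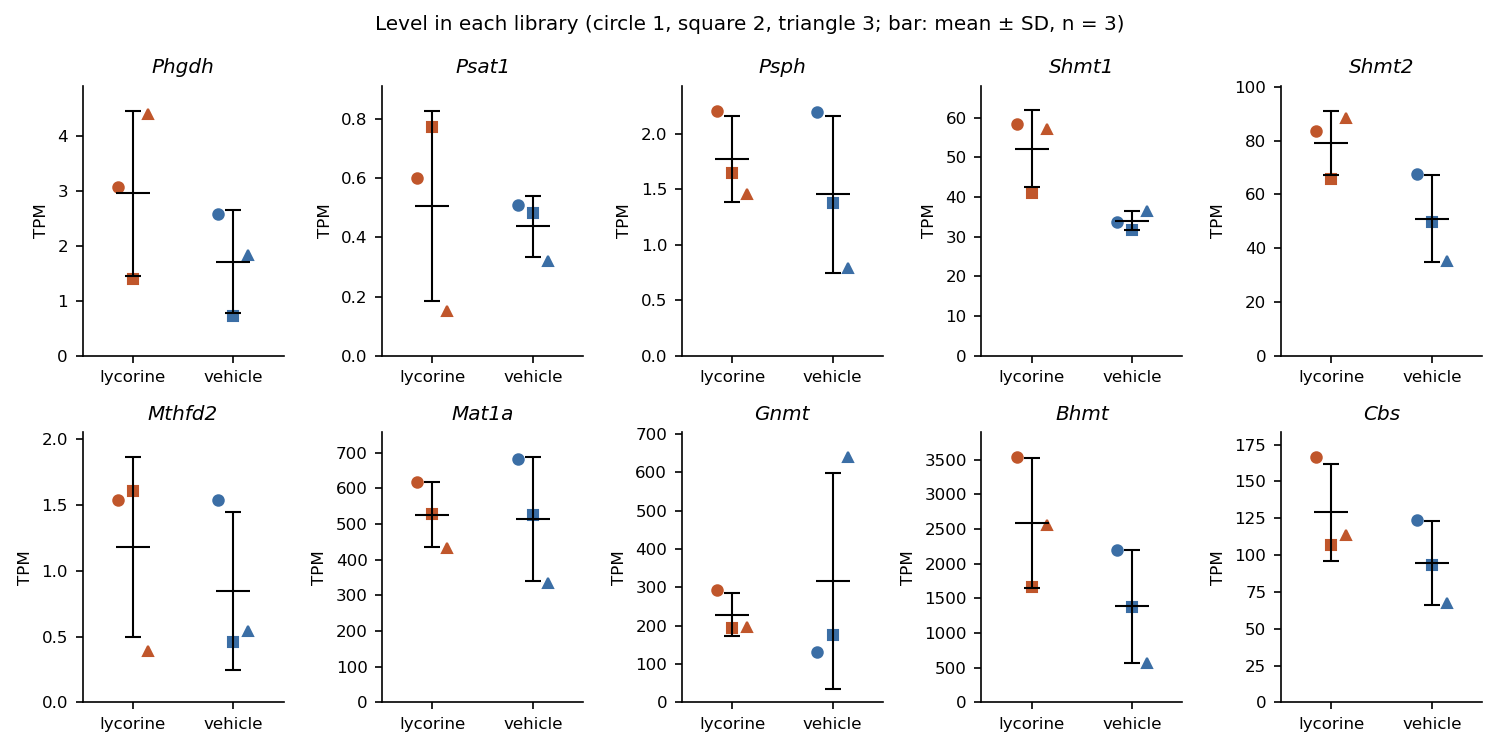
TPM of each of the 10 genes in each library, with lycorine left of vehicle; symbols give the library number (circle 1, square 2, triangle 3) and the bar the mean with SD, n = 3. The Shmt1 groups do not touch, Gnmt has 1 vehicle library far above the rest, at 640.0 TPM, and Bhmt runs from 574 TPM in vehicle 3 to 3536 TPM in lycorine 1.

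The methionine cycle genes were the most abundant of the set. Mat1a, the liver form of methionine adenosyltransferase, on chromosome 14 from 41105035 to 41124412, was at 616.7, 527.9 and 434.3 TPM in lycorine and at 682, 526.4 and 334.4 TPM in vehicle. The lycorine values lay inside the vehicle range. The difference of 0.08 on the log2 scale (SE 0.34, limma adjusted p = 0.959) was -0.23 with median-of-ratios scaling, so no direction is given for it.

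Gnmt, which disposes of surplus methyl groups by methylating glycine, on chromosome 17 from 46725664 to 46729168, was at 293.6, 194.9 and 196.7 TPM in lycorine and at 131.4, 175.9 and 640.0 TPM in vehicle. Vehicle 3 was the highest library and the other vehicle libraries were the lowest of the 6. Gnmt ranked 108 among protein-coding nuclear genes in vehicle 3 and between 354 and 583 in the other libraries. On the log2 scale the difference was -0.13 (SE 0.58, limma adjusted p = 0.960) with all libraries and 0.56 without vehicle 3, so its sign rested on that library. Vehicle 3 also held the largest share of TPM in assembled loci and in identifiers absent from M21, 10.8%, against 2.01% to 4.11% in lycorine and 1.65% to 2.93% in the other vehicle libraries. The part of this makeup in the Gnmt level was not tested. Gnmt shares 3505 bases, its whole span in M21, with the long noncoding gene Gm26904 on the other strand. No level was available for Gm26904, and its part in the Gnmt values was not tested.

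Bhmt, on chromosome 13 from 93616675 to 93637961, was at 3536, 1657 and 2563 TPM in lycorine and at 2202, 1374 and 574 TPM in vehicle. Lycorine 1 and lycorine 3 were the highest libraries, lycorine 2 lay between vehicle 1 and vehicle 2, and vehicle 3 was the lowest. Its mean was 2585 ± 940 TPM in lycorine and 1383 ± 814 TPM in vehicle (SD, n = 3 each). The log2 fold change of 1.04 (SE 0.53, limma adjusted p = 0.832) was the largest of the 9. It was 0.50 without vehicle 3, where that of Shmt1 was 0.64, and it was 1.47 without vehicle 1 and 0.36 with array quality weights, which give less weight to libraries that vary more. Bhmt made up 74.3%, 63.8% and 74.1% of the summed TPM of the 10 genes in lycorine and 67.8%, 60.9% and 33.9% in vehicle, so a sum over the genes is mainly Bhmt. Its paralog Bhmt2 can share reads with it, and the values of both are uncertain to that extent.

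Cbs, on chromosome 17 from 31608894 to 31637238, was at 166.6, 106.9 and 113.4 TPM in lycorine and at 123.8, 93.2 and 67.3 TPM in vehicle. Vehicle 1 lay above lycorine 2 and lycorine 3, so the groups overlapped. On the log2 scale the difference was 0.45 (SE 0.34, limma adjusted p = 0.832). It was 0.15 with median-of-ratios scaling, 0.23 without vehicle 3 and 0.26 without lycorine 1.

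TPM is set per length, so the 10 genes can be ordered. By mean level the order was the same in both groups: Bhmt, Mat1a, Gnmt, Cbs, Shmt2, Shmt1, Phgdh, Psph, Mthfd2, Psat1. In lycorine each of the first 6 stood apart from the next by range, and the last 4 overlapped with their neighbours. In vehicle only Gnmt and Cbs, and Shmt1 and Phgdh, stood apart from each other among neighbours. Vehicle 3 was the lowest library for 5 of the 10 genes and the highest for 1, Gnmt, while lycorine 1 was the highest for 4.

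A ratio of 2 genes in 1 library does not depend on the scaling between libraries, apart from the 1 TPM added before the log, which weighs on genes near 1 TPM such as Mthfd2 and Psat1. Of 6 such ratios, each on log2(TPM + 1), 1 separated the groups, and with a pseudocount of 0.1 none did. Mthfd2 over Mthfd2l, a related mitochondrial enzyme, had log2 ratios of -1.33, -1.15 and -1.86 in lycorine and of -2.14, -2.04 and -3.56 in vehicle, a difference of 1.13. The exact permutation p, two-sided, was 0.1, the smallest possible, and 0.6 after Benjamini-Hochberg adjustment over the 6 ratios. With a pseudocount of 0.1 the ratio differed by 1.41, lycorine 3, at -3.08, lay below vehicle 1, at -2.65, and the exact permutation p was 0.2. Without vehicle 3 the difference of the ratio was 0.64. Mthfd2l itself was at 5.40, 4.80 and 4.05 TPM in lycorine and at 10.2, 5.02 and 17.1 TPM in vehicle. On the log2 scale Mthfd2l differed by -0.90 (SE 0.42, limma adjusted p = 0.832).

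Shmt2 over Shmt1 was at 0.51, 0.67 and 0.62 in lycorine and at 0.98, 0.64 and -0.04 in vehicle. The lycorine libraries lay close together, inside the wide vehicle range, with a difference of 0.07 (exact permutation p = 0.9, n = 3 each), which was -0.21 without vehicle 3. Cbs over Bhmt, the enzymes of the homocysteine branch point, was at -4.40, -3.94 and -4.49 in lycorine and at -4.14, -3.87 and -3.07 in vehicle, a difference of -0.58 (exact permutation p = 0.2, n = 3 each). Without vehicle 3 it was -0.27. The other ratios also overlapped. Mat2a, the methionine adenosyltransferase of most other tissues, over Mat1a differed by 0.16, Bhmt over Mtr, the folate-dependent methionine synthase, by 0.90, and Psat1 over Phgdh by -0.48, with exact permutation p values of 0.4 to 0.6 (n = 3 each). Without vehicle 3 the Bhmt and Mtr difference was 0.01. The Psat1 and Phgdh difference was -0.77 with a pseudocount of 0.1 and -0.04 without lycorine 3.

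**Figure D3:**
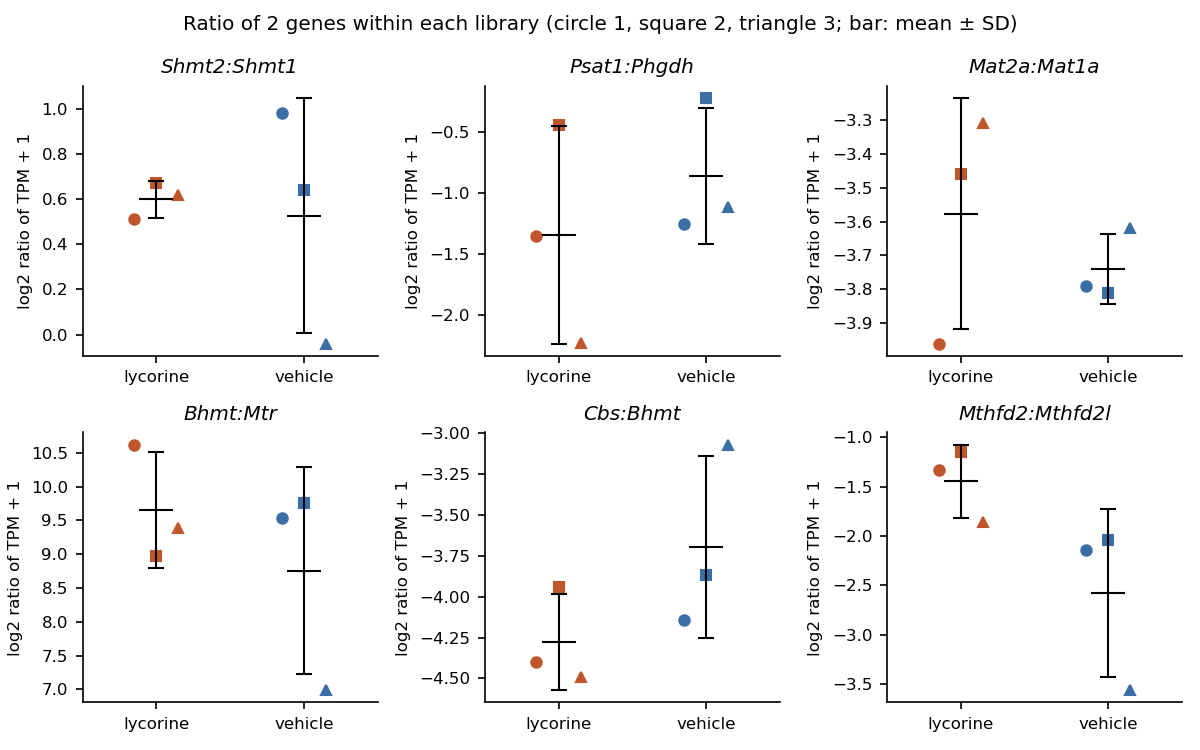
Log2 ratio of TPM + 1 of 2 genes within each library, lycorine left of vehicle, with the mean and SD as a bar (n = 3); the axes do not start at 0. Mthfd2 over Mthfd2l is the 1 ratio whose groups do not overlap, with a difference of 1.13, though they do overlap with a pseudocount of 0.1. Vehicle 3 (blue triangle) lies farthest from the other vehicle libraries for every ratio but Psat1 over Phgdh.

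The rest of the pathway was read from 9 further lists of 98 genes, of which 89 passed the filter. In limma 0 of them passed over all rows. At an unadjusted p under 0.05 there were 7 higher and 1 lower in lycorine, or 8 of 89, where 3.44% of all rows had such a p. Every lycorine library lay above every vehicle library in 15 and below in 1, where 9.6% and 1.01% of all rows did so. The separations named for genes of these lists are those in TPM. With median-of-ratios scaling those of Csad, Tst, Got1, Pemt, Gcat, Ggh and Dld were lost, and those of Bhmt2 and Folr2 remained. Over all rows that scaling separated 3.2% upward and 3.65% downward. The median log2 fold change of the 89 was 0.33, with 74 above 0, and with median-of-ratios scaling it was 0.08, with 50 above 0.

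Transsulfuration and sulfur genes, which carry on from Cbs to cysteine, taurine and sulfide disposal, had the highest median of the 9 lists, 0.67. All 12 had a log2 fold change above 0 and above 0.22, the median of all rows. In 5 every lycorine library lay above every vehicle library, where 9.6% of all rows did so. With median-of-ratios scaling the median was 0.37, 10 were above 0, and the groups of all 5 overlapped. Without vehicle 3 the median was 0.27. Csad makes the precursor of taurine, and taurine is used to conjugate bile acids. Csad was at 82.5, 62.0 and 39.4 TPM in lycorine and at 17.2, 32.4 and 22.9 TPM in vehicle. Every lycorine library lay above every vehicle library. The difference on the log2 scale was 1.29 (SE 0.38, unadjusted p = 0.0108, limma adjusted p = 0.832). Tst, a mitochondrial sulfurtransferase, was at 245.2, 219.9 and 192.1 TPM in lycorine and at 153.5, 140.9 and 85.3 TPM in vehicle, again without overlap (log2 fold change 0.82, limma adjusted p = 0.832). Got1, an aminotransferase that also acts on cysteine sulfinate, was at 74.9, 27.6 and 21.2 TPM in lycorine and at 14.0, 17.0 and 19.0 TPM in vehicle, without overlap but with lycorine 1 far above the other libraries.

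Methyltransferases that use S-adenosylmethionine were next, with a median of 0.56 over 10 genes, of which 9 were above 0. With median-of-ratios scaling their median was 0.27, and without vehicle 3 it was also 0.27. Pemt, which makes phosphatidylcholine by methylation in hepatocytes, was at 398.4, 437.5 and 450.9 TPM in lycorine and at 282.8, 253.6 and 237.4 TPM in vehicle. The groups did not overlap in TPM, with a log2 fold change of 0.73 (SE 0.25, unadjusted p = 0.0201, limma adjusted p = 0.832). With median-of-ratios scaling it was 0.42, and the groups overlapped, with vehicle 2 above lycorine 1. As3mt, which methylates arsenic, had a log2 fold change of 1.01, and its groups overlapped. Inmt, an indole methyltransferase, was the 1 gene of the list below 0. It was at 19.2, 49.9 and 20.5 TPM in lycorine and at 56.7, 123.1 and 35.1 TPM in vehicle, and is named because it fell outside the direction of the rest, after its values were seen.

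Among other methionine cycle genes 7 of 9 were above 0, with a median of 0.24, and with median-of-ratios scaling 4 of 9, with a median of -0.03. Without vehicle 3 the median was 0.12. Bhmt2, the paralog that uses S-methylmethionine as donor, was at 95.9, 80.8 and 105.7 TPM in lycorine and at 75.4, 49.3 and 40.3 TPM in vehicle, without overlap (log2 fold change 0.80, SE 0.32, limma adjusted p = 0.832). Adk, which clears the adenosine released in the cycle, and Mtrr, which reactivates methionine synthase, had log2 fold changes of 0.41 and 0.43, and Mat2a had 0.24. Genes of betaine, dimethylglycine and sarcosine were above 0 in 6 of 6 cases, with a median of 0.34, and in none did the groups separate. With median-of-ratios scaling 4 of the 6 were above 0, with a median of 0.06, and without vehicle 3 it was 3 of 6, with a median of 0.02. Chdh, which makes betaine from choline, was at 15.5, 11.5 and 13.3 TPM in lycorine and at 11.6, 8.18 and 4.85 TPM in vehicle. Lycorine 2 lay just below vehicle 1.

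Other folate cycle genes were above 0 in 11 of 13 tested cases, with a median of 0.32. With median-of-ratios scaling it was 7 of 13, with a median of 0.01, and without vehicle 3 it was 8 of 13, with a median of 0.15. Tyms, the thymidylate synthase that uses folate in DNA synthesis, was at 10.9, 6.15 and 3.51 TPM in lycorine and at 3.19, 3.72 and 1.66 TPM in vehicle, and lycorine 3 overlapped with vehicle 2. Ggh, which trims folate polyglutamates, was at 6.13, 4.46 and 3.61 TPM in lycorine and at 2.54, 2.90 and 1.66 TPM in vehicle, without overlap (log2 fold change 0.76, limma adjusted p = 0.832). Aldh1l2, the mitochondrial folate dehydrogenase next to Mthfd2 in the pathway, was at most 0.02 TPM in any library and was not tested. It is named for its low level, after its values were seen.

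Of other serine and glycine enzymes 9 of 12 were above 0, with a median of 0.32, and with median-of-ratios scaling 6 of 12, with a median of 0.03. Without vehicle 3 the median was 0.16. Gcat, which splits a threonine product into glycine, was at 23.2, 28.5 and 27.5 TPM in lycorine and at 13.4, 15.8 and 19.2 TPM in vehicle, without overlap (log2 fold change 0.68, limma adjusted p = 0.832). Gcsh and Dld, parts of the mitochondrial glycine cleavage system, had log2 fold changes of 1.0 and 0.55, and only in Dld did the groups not overlap. Folate carriers and receptors had a median of 0.16 over 4 tested genes, which was -0.06 with median-of-ratios scaling. Slc46a1, the proton-coupled folate transporter, and Slc19a1, the reduced folate carrier, had log2 fold changes of 0.84 and 0.33 with overlap. Folr2, a folate receptor that is also on the list of Kupffer cell markers used here, was at 1.53, 1.1 and 1.95 TPM in lycorine and at 3.31, 4.76 and 2.65 TPM in vehicle, with every lycorine library below every vehicle library (log2 fold change -0.84, limma adjusted p = 0.832).

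Methionine salvage and polyamine genes had a median of 0.26 over 10 genes, close to that of all rows, and in none did the groups separate. With median-of-ratios scaling 5 of the 10 were above 0. Apip and Adi1, of the salvage route, and Srm, spermidine synthase, had log2 fold changes of 0.61, 0.49 and 0.55. The list of ATF4 and the amino acid response, the pathway known to induce the serine synthesis genes when amino acids are short, had a median of 0.12 over 13 tested of 19 genes, below that of all rows, and of -0.12 with median-of-ratios scaling. Its genes with the smallest p were Slc38a2, an amino acid transporter, Vldlr and Pck2, with log2 fold changes of 0.38, 0.53 and 0.46 and overlapping groups. Atf4 itself was at 42.0, 53.9 and 35.3 TPM in lycorine and at 58.2, 31.9 and 25.0 TPM in vehicle. The groups overlapped, as did those of Phgdh, Psat1 and Psph.

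**Figure D4:**
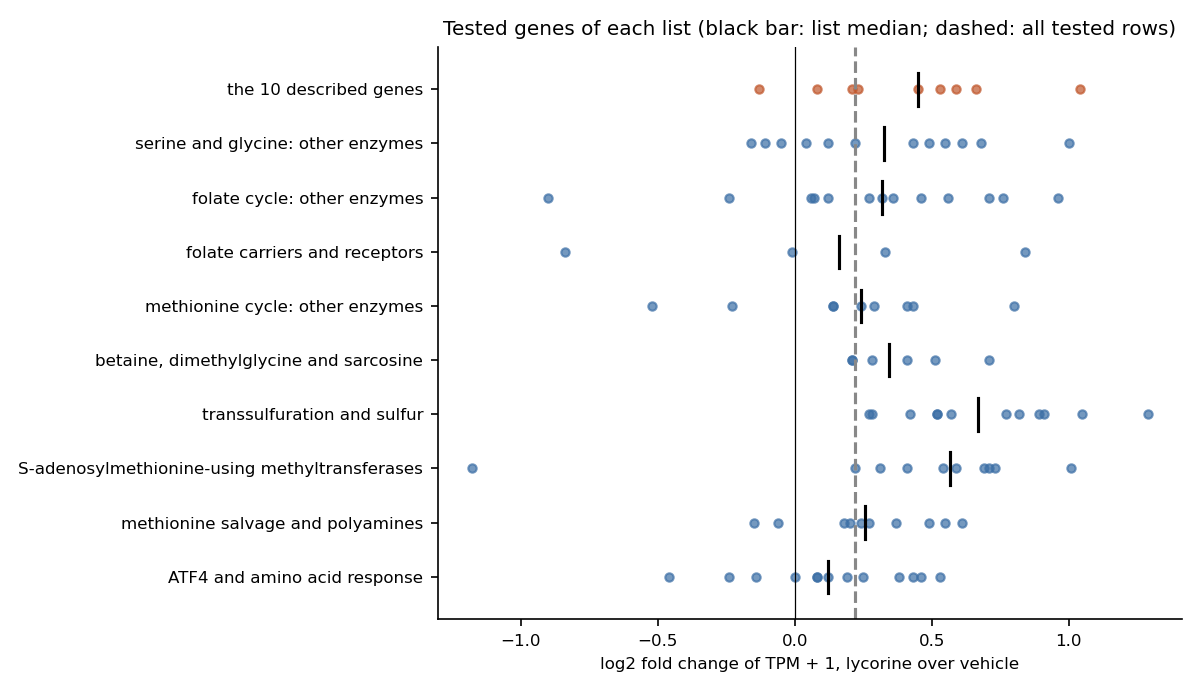
Log2 fold change of TPM + 1, lycorine over vehicle, of every tested gene of the 10 described genes (orange) and of the 9 further lists (blue); black bars are list medians and the dashed line is the median of all tested rows, 0.22. Transsulfuration and sulfur genes have the highest median, 0.67, and all lie to the right of the dashed line.

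Cell type markers that move with these values are given as measured, and their part in the results was not tested. The 10 described genes are mostly of hepatocytes, and in bulk liver fewer cells of a type and less RNA per cell cannot be told apart. The summed level of the 9 hepatocyte markers ranged from 33885 to 51779.9 TPM in lycorine and from 16803 to 47828 TPM in vehicle, lowest in vehicle 3. Markers of pericentral hepatocytes, the cells around the central vein, summed to 3347 to 4314 TPM in lycorine and 1621 to 3114 TPM in vehicle, without overlap in TPM. Of these markers 10 of 10 had a log2 fold change above 0, with a median of 0.72. Cyp2e1 held most of that sum, at 2710 ± 404 TPM in lycorine and 1677 ± 458 TPM in vehicle (SD, n = 3 each). With median-of-ratios scaling 10 of 10 stayed above 0, with a median of 0.41, but the pericentral sums overlapped, with vehicle 2 above every lycorine library. Markers of periportal hepatocytes, where serine dehydratase (Sds) is high, summed to 1604 to 3329 TPM in lycorine and 1466 to 2279.9 TPM in vehicle, and 8 of 10 were above 0, with a median of 0.29, or 5 of 10 with a median of -0.02 with median-of-ratios scaling.

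Kupffer cell markers, 11 tested of 12, were below 0 in 11 cases, with a median of -0.92, or -1.09 with median-of-ratios scaling. In 6 of them every lycorine library lay below every vehicle library, where 1.01% of all rows did so. Their sums overlapped, at 159 to 416 TPM in lycorine and 239 to 570.3 TPM in vehicle, as did the groups of C1qa, the highest of the list. Markers of sinusoidal endothelium were below 0 in 8 of 8 tested cases, with a median of -0.56. Without vehicle 3 the median was -0.23 and 2 of the 8 were above 0, and without vehicle 3 and lycorine 3 it was -0.13 and 4 were. The markers had sums of 59.9 to 88.8 TPM in lycorine and 46.6 to 219 TPM in vehicle. Bile duct markers, with Spp1 the highest, summed to 59.2 to 238 TPM in lycorine and 52.1 to 249 TPM in vehicle. Stellate cell and fibroblast markers summed to 53.6 to 255 TPM in lycorine and 98.9 to 200.3 TPM in vehicle, T and NK cell markers to 12.6 to 27.3 TPM in lycorine and 19.3 to 48.6 TPM in vehicle, and B and plasma cell markers to 79.9 to 449.7 TPM in lycorine and 117 to 546 TPM in vehicle. Neutrophil markers summed to 1.83 to 4.41 TPM in lycorine and 6.98 to 28.1 TPM in vehicle, without overlap, with Ly6g at 0 in every library. Erythroid markers summed to 430.1 to 687 TPM in lycorine and 523 to 767 TPM in vehicle.

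**Figure D5:**
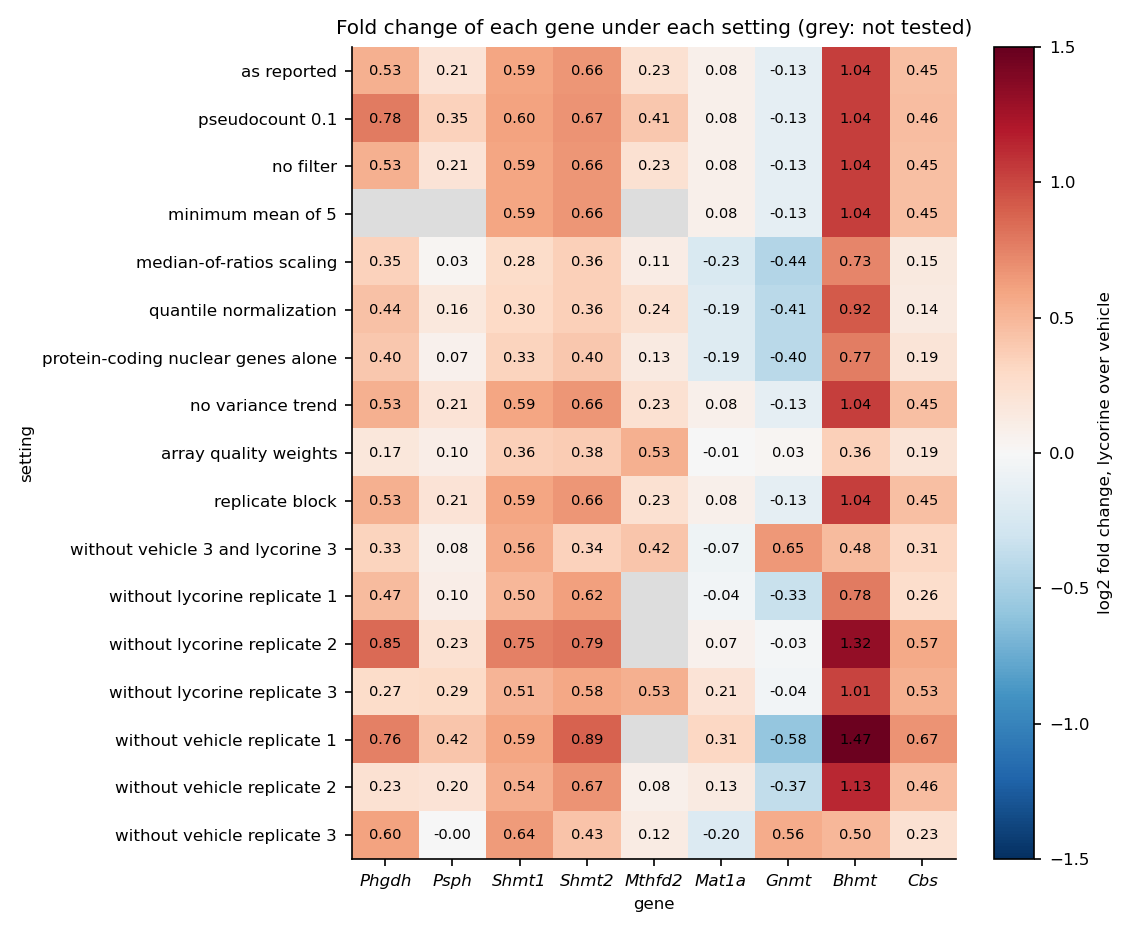
Log2 fold change of lycorine over vehicle for the 9 tested genes (columns) under each setting (rows), with red above 0 and blue below; grey cells were not tested under that setting. Bhmt, Shmt1, Shmt2, Cbs and Phgdh are above 0 in every row where they were tested, while Mat1a and Gnmt take both signs.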

How the data were processed

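RNA sequencing covered 6 liver libraries. The authors deposited a single table of values by gene and library, labelled FPKM in its name. Every deposited column adds up to 1000000 within rounding, as TPM do, and the values were treated as TPM. Builds GRCm38 and mm10 stand in the submitters' processing notes. The aligner, quantifier and gene models were not given in the sources used here. TPM keep no depth. Lycorine columns are marked with Ly, and the unmarked columns were taken as vehicle.

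GENCODE M21 gave the names. Rows averaging 1 TPM or more entered limma 3.58.1 (R 4.3.3, trended variance) as log2(TPM + 1), lycorine minus vehicle. The p-values are two-sided, and Benjamini-Hochberg adjustment covered the 13854 rows. This scale understates fold changes of weak genes. Ratios had exact permutation tests over 20 assignments (scipy 1.17.1). The limma fit was tested on simulated data without differences in makeup between libraries, and nothing is read from that for the genes here.

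The 10 genes and the lists were chosen with earlier results of these data known. Named beyond the 10 were up to 3 genes with the smallest p in each list, the partners in ratios, and the highest gene of the marker lists described; 1 gene that this rule names is not reported here. Of the listed markers, 1 hepatocyte and 1 endothelial symbol were not matched. Alternatives covered the pseudocount, filter, scaling, variance model, library weights, replicate block and libraries left out.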

Additional observations from a re-analysis of the deposited data

How the results depend on the processing

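None of the 9 tested genes passed limma's adjusted threshold under any of the 16 alternatives in which it was tested, which were 12 for Mthfd2, 15 for Phgdh and for Psph and all 16 for the others, with a smallest adjusted p of 0.521, without vehicle 1. The number of rows called over the whole table was 0, but 5 without vehicle 3 and lycorine 3, 1 with array quality weights (whose iteration stopped before its tolerance was reached), 1 at the pseudocount of 0.1, and 0 to 2 when 1 library was left out. The number of the genes above 0 was 8 of 9. It was 7 of 9 with median-of-ratios scaling, quantile normalization, protein-coding nuclear genes alone and without vehicle 3. Where fewer genes were tested it was 5 of 6 with a minimum mean of 5 TPM, 6 of 8 without lycorine 1 and 7 of 8 without lycorine 2 and without vehicle 1. The median of 0.45 was 0.15 with median-of-ratios scaling and 0.23 to 0.66 when 1 library was left out. The number of genes with every lycorine library above every vehicle library was 1, and 0 with median-of-ratios scaling and 0 with protein-coding nuclear genes alone, both chosen after seeing the data. Mat1a changed sign to -0.23 with median-of-ratios scaling, -0.19 with quantile normalization, -0.19 with protein-coding nuclear genes alone, -0.009 with library weights, -0.07 without vehicle 3 and lycorine 3, and it ranged from -0.20 to 0.31 when 1 library was left out. Gnmt changed sign to 0.65 without vehicle 3 and lycorine 3 and to 0.03 with library weights, and ranged from -0.58 to 0.56 when 1 library was left out. Psph reached -0.0021 without vehicle 3, with a highest value of 0.42. The Shmt2 over Shmt1 difference was -0.22 without vehicle 3 and lycorine 3, and -0.21 to 0.30 when 1 library was left out. The cause of these changes was not tested.

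The deviations of same-numbered libraries from their group means correlated at 0.311, 0.0494 and 0.291 across rows, each the highest value for its lycorine library. Pairs of unlike number ran from -0.344 to 0.214. The labels used here state no pairing, so the main fit left the number out, and whether same-numbered libraries share a batch was not tested. With the replicate block limma called 0 rows and the adjusted p of Shmt1, Shmt2 and Bhmt was 0.595. Vehicle 2 correlated better with lycorine 1, at 0.214, than with lycorine 2. Depth is unknown, so no counting limit is given for the weak genes.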
